A study of Homo sapiens with 30 samples.

Results

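BAF complexes are large ATP-driven machines that slide or evict nucleosomes, and the 10 genes described here encode subunits of them. The members are the genes with exactly the symbols SMARCA2, SMARCA4, SMARCC1, SMARCC2, SMARCD1, SMARCD2, SMARCD3, DPF2, DPF3 and ARID1A. All 10 have 1 row each among the 41495 entries of the time-course table, and all 10 are among the 21715 genes that reached 1 FPKM (fragments per kilobase of transcript, scaled to the mapped fragments) in at least 1 time point. The sort tables used here list 3 of them for the day 3 sort and 4 for the day 4 sort, and 5 members are in neither.

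RNA was sequenced from the H7 human embryonic stem cell line (hESC) and from cells at successive days of its differentiation to cardiomyocytes. The later groups are D1, D2, D3, D4, D5, D6, D8, D10 and D15, named for the day, and day 31 cardiomyocytes purified on a Percoll density gradient. The protocol exposed the cells to 12 µM CHIR99021, an inhibitor of the kinase GSK3 that activates WNT signalling, for 24 hours, and then to 5 µM IWP4, an inhibitor of WNT secretion, for 2 days. hESC were taken before this treatment. PMESO cells were sorted at day 3 as positive for the receptor ROR2 and are set against ROR2-negative cells of that day. CMESO cells were sorted at day 4 as positive for ROR2 and PDGFRa and are set against cells positive for ROR2 but negative for PDGFRa. All groups come from 1 cell line, and each group has 2 libraries, but the tables hold 1 value per gene and group. No spread between libraries can therefore be set beside a time-course value, and differences over time carry no test. The count of reads behind each value is unknown.

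A gene is called higher or lower here when log2(FPKM + 1) differs by at least 1, which is 2-fold on that scale and less than the true ratio for genes with low values. Summed over the 7 pluripotency markers, FPKM stood at 2966 in hESC, 123 at D10 and 6.08 in cardiomyocytes. The 7 cardiomyocyte markers summed to 15.5 FPKM in hESC and 11453 in cardiomyocytes. Stromal markers (COL1A1, COL3A1, LUM, DCN and POSTN) summed to 3010 FPKM in the unpurified D15 cells and 931 FPKM in cardiomyocytes. In bulk RNA, fewer cells of a type and less RNA per cell cannot be told apart.

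Each BAF complex has 1 ATPase, either SMARCA4 (BRG1) or SMARCA2 (BRM), on a scaffold of SMARCC1 (BAF155) and SMARCC2 (BAF170) proteins, with 1 of the SMARCD (BAF60) proteins. In its canonical form it also holds an ARID1 protein and a member of the DPF (BAF45) family, whose PHD fingers bind modified histone tails. Because paralogs compete for the same places, a cell can change the makeup of its complexes by changing which paralog it transcribes. In mouse embryonic stem cells the complex is rich in Brg1 and Baf155. In mouse embryos Smarcd3 (Baf60c) links the complex to cardiac transcription factors, and in zebrafish dpf3 is needed for heart and muscle development.

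Of the 10 members, SMARCD3, DPF3, SMARCA2 and ARID1A were at least 2-fold higher in cardiomyocytes than in hESC, and SMARCD2 and SMARCD1 were at least 2-fold lower. The largest difference was that of SMARCD3, at 71.5 FPKM in cardiomyocytes and 3.70 FPKM in hESC. The same rule called 18.7% of all kept genes higher and 16.9% lower, so 4 higher and 2 lower of 10 is to be read against a background in which differences are common. The median log2 change of the 10 members was 0.31, beside 0.03 for all kept genes. Over all 11 time points the highest value lay at least 2-fold above the lowest for 9 of the 10 members, as it did for 84.7% of kept genes, and DPF2 was the exception. Within D1 to D10 this held for 5 members (SMARCA2, SMARCC2, SMARCD3, DPF3 and ARID1A), beside 54.7% of kept genes. Steps with no member past 2-fold were D3 against D2 (8.14% of kept genes called either way), D6 against D5 (7.40%), D8 against D6 (2.01%) and D10 against D8 (2.27%).

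**Figure D1:**
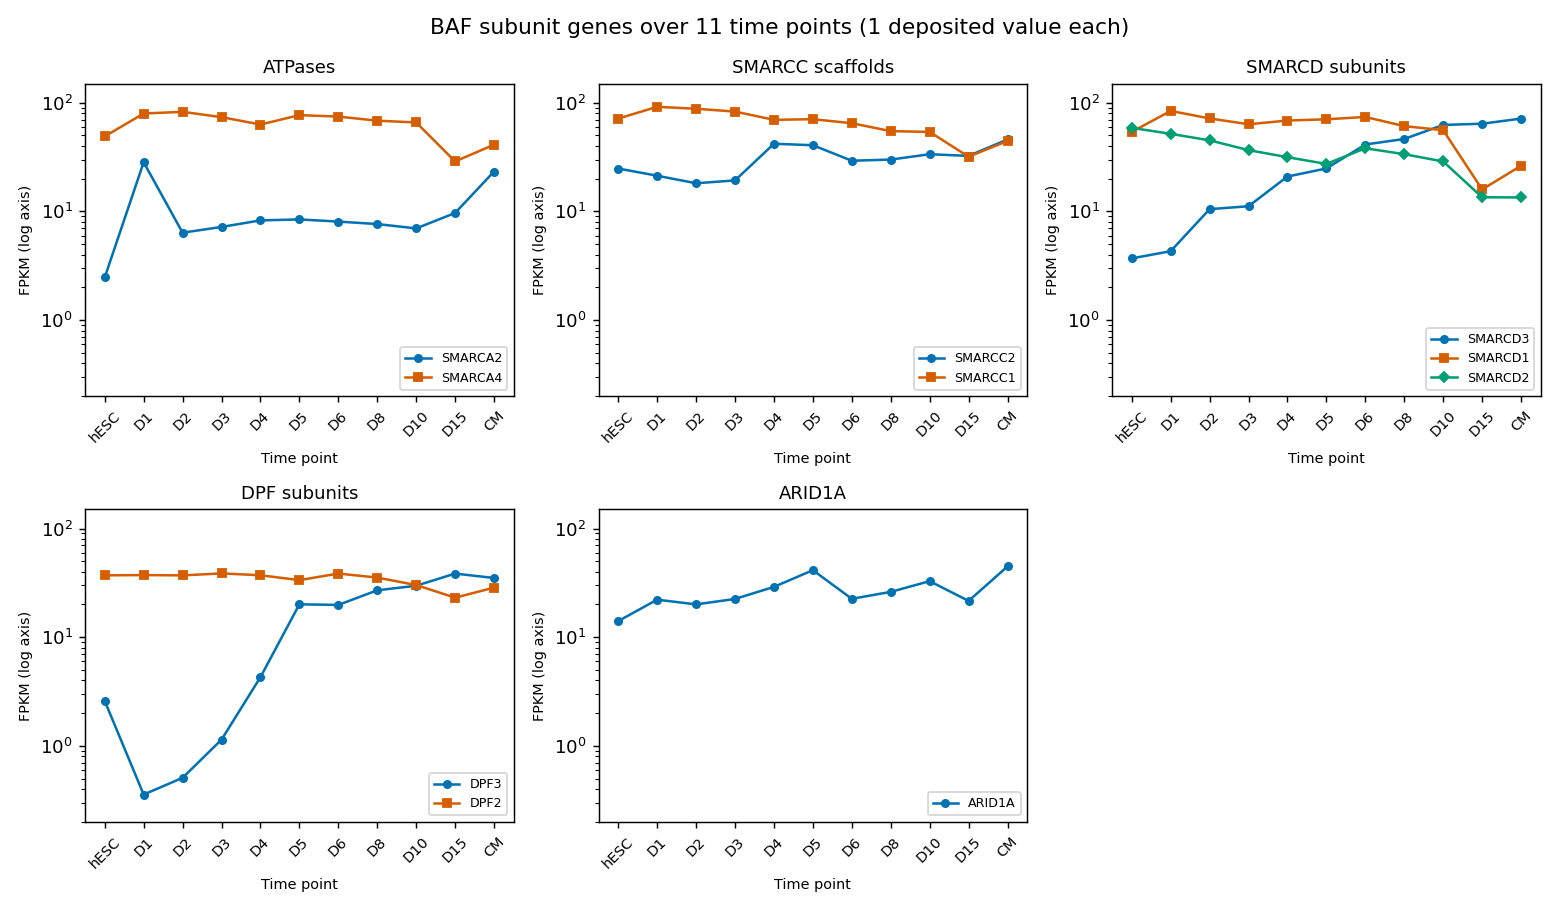
FPKM (log axis) of the 10 members at 11 time points, 1 deposited value per point and CM for day 31 cardiomyocytes. SMARCD3 has 71.5 FPKM in CM and 3.70 in hESC, DPF3 runs from a low of 0.356 at D1 to a high of 38.5 at D15, while SMARCA2 has an isolated high value of 28.3 at D1.

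SMARCD3 had its lowest value in hESC and its highest in cardiomyocytes, and each column in between was higher than the one before it. Its FPKM was 3.70 in hESC, 4.31 at D1, 10.5 at D2, 11.2 at D3, 20.9 at D4, 24.9 at D5, 41.3 at D6, 46.4 at D8, 62.5 at D10, 64.1 at D15 and 71.5 in cardiomyocytes. The single step that passed 2-fold was D2 against D1, with 10.5 and 4.31 FPKM (2.66% of kept genes were called higher there). Most of the difference was in place by D10, since cardiomyocytes stood 1.14 times as high as D10. The sort tables list SMARCD3 under the hg19 locus chr7:150929575-150974982, and such a locus can reach beyond the gene. A window is shown for SMARCD3 because it has the largest difference of the members, and RefSeq gives it several start sites. Shown is the window of the most downstream start, the only SMARCD3 window with GATAA, a motif described below. It covers 250 bases before to 50 after the start, GRCh38.p14 chr7:151248645-151248944, minus strand. The capitals mark GATAA, the core bound by GATA factors, read here on the other strand as TTATC, and AAGTG, the core bound by NK2 homeodomain factors.
SMARCD3: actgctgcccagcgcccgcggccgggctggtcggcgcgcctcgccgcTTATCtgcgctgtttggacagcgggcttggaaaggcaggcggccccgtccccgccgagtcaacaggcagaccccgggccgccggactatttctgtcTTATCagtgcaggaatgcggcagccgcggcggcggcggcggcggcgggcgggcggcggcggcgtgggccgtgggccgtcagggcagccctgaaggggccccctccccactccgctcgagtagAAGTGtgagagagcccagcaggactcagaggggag

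The sister genes SMARCD1 and SMARCD2 ran differently from each other. SMARCD1, the most abundant of the group at D1 to D8, was 53.9 FPKM in hESC, 84.2 at D1, 71.7 at D2, 63.4 at D3, 68.6 at D4, 70.5 at D5, 74.0 at D6, 60.9 at D8, 55.9 at D10, 15.9 at D15 and 26.3 in cardiomyocytes. It thus stayed between 53.9 and 84.2 FPKM up to D10 and stood lower in both late columns. Between cardiomyocytes and hESC its log2 change was -1.01, just past the 2-fold line, and it is no longer past it (-0.89) after the columns are rescaled to a common median ratio. SMARCD2 was highest in hESC and lowest in cardiomyocytes. It was 58.7 FPKM in hESC, 51.8 at D1, 45.1 at D2, 36.7 at D3, 31.6 at D4, 27.4 at D5, 38.1 at D6, 33.6 at D8, 28.8 at D10, 13.5 at D15 and 13.4 in cardiomyocytes. It was already lower at D5 than at D1, a span over which SMARCD1 stayed between 63.4 and 84.2 FPKM.

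The 3 SMARCD genes together had similar totals at both ends, with a summed FPKM of 111 in cardiomyocytes and 116 in hESC. Such totals depend on how the columns were scaled. All genes summed to 730619 FPKM in cardiomyocytes and 1429857 in hESC, while the median-ratio scale factors were 1.00 and 1.09. The proportions of the 3 SMARCD genes were different. SMARCD3 made up 3.18% of the sum in hESC, 3.07% at D1, 8.24% at D2, 10.0% at D3, 17.3% at D4, 20.3% at D5, 26.9% at D6, 32.9% at D8, 42.5% at D10, 68.5% at D15 and 64.3% in cardiomyocytes. SMARCD2 held the largest share in hESC (50.5%, beside 46.4% for SMARCD1), SMARCD1 from D1 to D8 (43.2% at D8), and SMARCD3 from D10 on. Plain FPKM ratios of genes within a column do not depend on how columns were scaled. This no longer holds exactly once 1 is added to both genes. SMARCD3 stood at 2.72 times SMARCD1 in cardiomyocytes and at 0.0685 times in hESC, a shift of 4.96 in log2((SMARCD3 + 1)/(SMARCD1 + 1)).

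**Figure D2:**
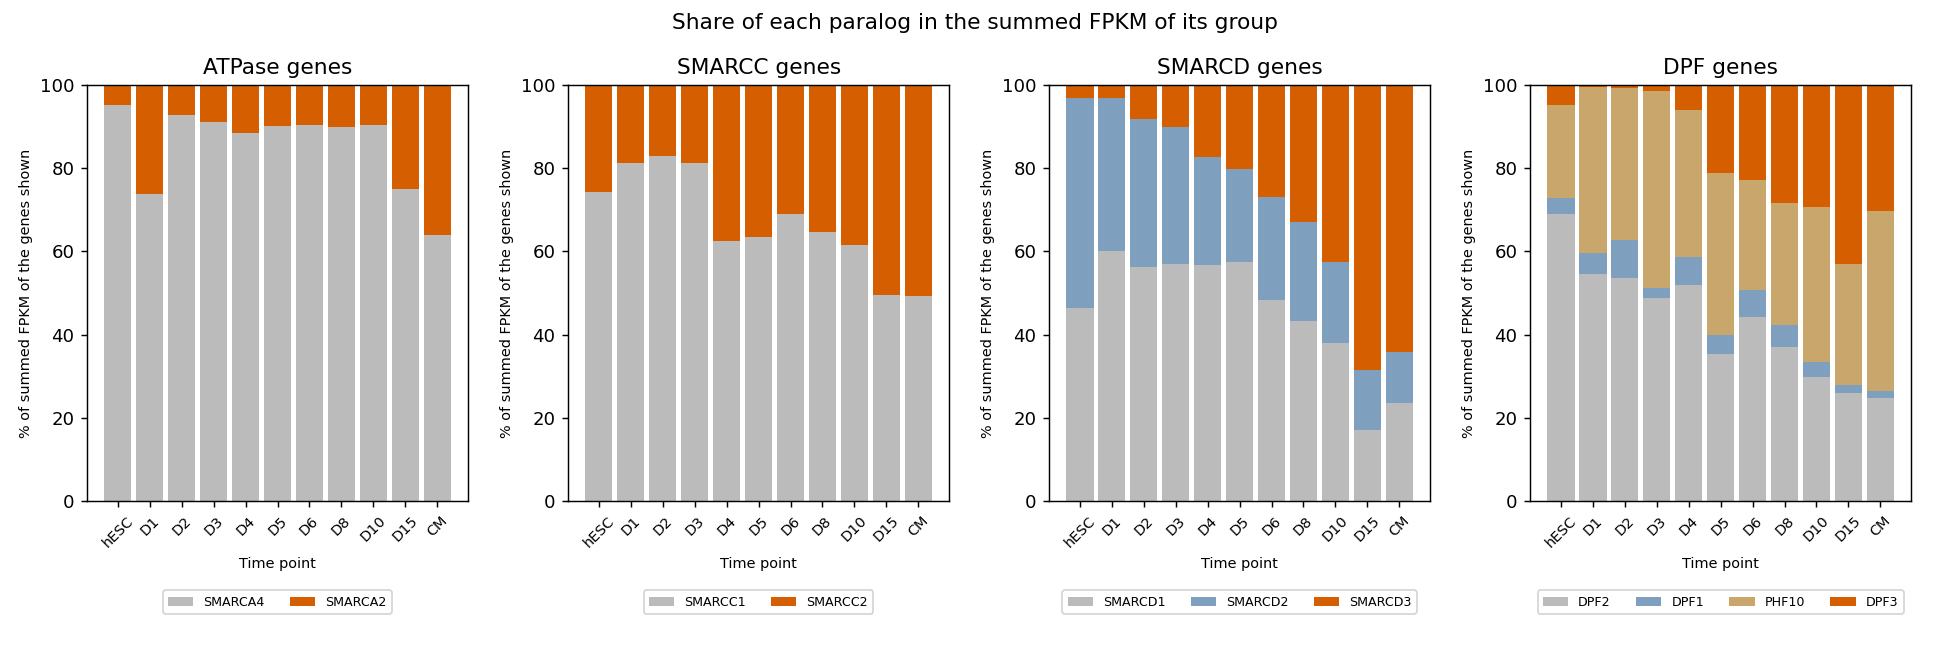
Share (%) of each paralog in the summed FPKM of its group at 11 time points, for the ATPase, SMARCC, SMARCD and DPF genes (the last with the related DPF1 and PHF10). SMARCD3 reaches 64.3% of its group in cardiomyocytes, against 3.18% in hESC.

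DPF3 was the other member with a large difference, and its course differed from that of SMARCD3 in having an early low and an abrupt step. DPF3 was 2.59 FPKM in hESC, 0.356 at D1, 0.508 at D2, 1.14 at D3, 4.29 at D4, 20.1 at D5, 19.8 at D6, 27.0 at D8, 29.7 at D10, 38.5 at D15 and 35.1 in cardiomyocytes. Between D1 and hESC it was called lower (0.356 and 2.59 FPKM, 11.1% of kept genes), D4 was called higher than D3 (6.79% of kept genes), and D5 was called higher than D4 (3.68% of kept genes). The D5 level was 4.68 times the D4 level, and no later step passed 2-fold. The hg19 locus listed for DPF3 is chr14:73086004-73360809. The window of the more upstream of its RefSeq start sites, GRCh38.p14 chr14:72894052-72894351, minus strand, is shown for comparison with SMARCD3. It holds 1 AAGTG core, capitalised on the other strand as CACTT, and no GATAA. The window of the other DPF3 start also holds 1 AAGTG core and no GATAA.
DPF3: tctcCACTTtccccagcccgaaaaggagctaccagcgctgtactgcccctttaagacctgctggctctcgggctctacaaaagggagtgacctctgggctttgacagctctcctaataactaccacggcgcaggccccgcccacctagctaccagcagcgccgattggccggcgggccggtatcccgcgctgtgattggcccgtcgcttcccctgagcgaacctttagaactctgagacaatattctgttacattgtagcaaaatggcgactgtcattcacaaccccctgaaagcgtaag

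DPF2, the broadly expressed relative of DPF3, had the flattest course of all members. It was 37.1 FPKM in hESC, 37.3 at D1, 37.0 at D2, 38.6 at D3, 37.2 at D4, 33.5 at D5, 38.5 at D6, 35.3 at D8, 30.2 at D10, 23.1 at D15 and 28.6 in cardiomyocytes, with 1.67-fold between the extremes. DPF3 first stood above DPF2 at D15, with nearly equal values of 29.7 and 30.2 FPKM at D10. The FPKM ratio of DPF3 to DPF2 was 1.23 in cardiomyocytes and 0.0698 in hESC, a shift of 3.69 on the log2 scale with 1 added to both. PHF10, which takes the corresponding place in the related PBAF complex, was 49.6 FPKM in cardiomyocytes and 12.0 FPKM in hESC, while DPF1, known mainly from neurons, stayed between 1.83 and 6.34 FPKM.

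SMARCD3 and DPF3 were set beside GATA4, TBX5 and NKX2-5, cardiac transcription factors with which Smarcd3 acts in mouse embryos. GATA4 was 0.676 FPKM in hESC, 3.28 at D1, 7.39 at D2, 7.03 at D3, 12.7 at D4, 40.2 at D5, 58.5 at D6, 62.5 at D8, 61.0 at D10, 67.6 at D15 and 98.4 in cardiomyocytes. TBX5 stood below 0.3 FPKM up to D3, at 1.01 at D4 and 12.9 at D5, and NKX2-5 at 3.09 at D5 and 29.8 at D6. SMARCD3 and GATA4 were already higher at D2 than in hESC. In log2(FPKM + 1), GATA4, TBX5 and DPF3 each had their largest step between neighbouring columns at D5, and NKX2-5 had its largest at D6. SMARCD3 stood 1.19 times as high at D5 as at D4. As a plain ratio, the largest step of GATA4 was D1 against hESC. Within each of the 11 columns all genes share the same libraries and scaling. Over these columns Pearson's r of log2(FPKM + 1) was 0.98 for SMARCD3 with GATA4, 0.92 with TBX5 and 0.92 with NKX2-5. For DPF3 it was 0.89 with GATA4, 0.97 with TBX5 and 0.90 with NKX2-5, and SMARCD3 and DPF3 had an r of 0.91 with each other. Among 11557 protein-coding genes of at least 5 FPKM somewhere, the patterns most like SMARCD3 were those of DNAJC6 (r = 0.99), GRK5 (0.98) and CCDC80 (0.98), and those most like DPF3 were DENND5B, TPM1 and SHC2 (each 0.98). Such likeness over 11 points that all run with time is a description.

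**Figure D3:**
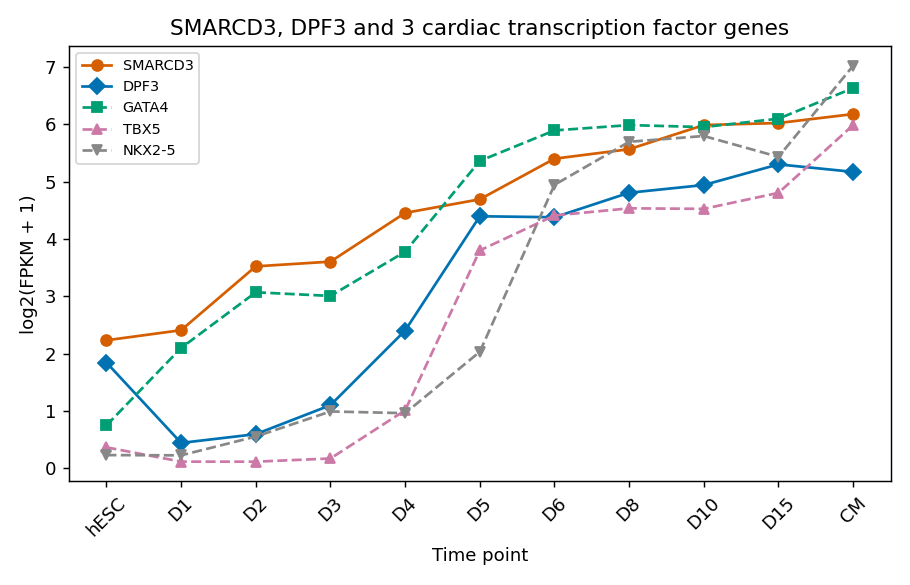
Level in log2(FPKM + 1) of SMARCD3 and DPF3 (solid lines) and of GATA4, TBX5 and NKX2-5 (dashed lines) at 11 time points. DPF3, GATA4 and TBX5 step up at D5, to 20.1, 40.2 and 12.9 FPKM, while SMARCD3 is higher from D2 on and shows no such step.

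Among the ATPases, SMARCA4 was the higher at every time point and SMARCA2 came closest to it in cardiomyocytes. SMARCA2 was 2.47 FPKM in hESC, 28.3 at D1, 6.37 at D2, 7.20 at D3, 8.27 at D4, 8.44 at D5, 8.06 at D6, 7.65 at D8, 6.98 at D10, 9.68 at D15 and 23.3 in cardiomyocytes. It was thus nearly level from D2 to D15, between 6.37 and 9.68 FPKM, with a high value in cardiomyocytes and 1 isolated high value at D1. D1 was called higher than hESC (12.0% of kept genes) and D2 lower than D1 (2.34%). The D1 value lay at least 2-fold above both neighbouring columns, as 1.10% of kept genes did. The genes with the most similar pattern were ZDHHC14 (r = 0.94), VGLL4 (0.91) and SLC7A6 (0.90). Whether the D1 level is a property of the cells or of that column's estimate was not tested. The comparison of cardiomyocytes with hESC gave a log2 change of 2.81. Against D1 in place of hESC it was -0.27, and against D2 it was 1.72, so the sign depends on which early column is taken.

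RefSeq places several SMARCA2 start sites along the gene, and the deposited value per gene does not tell transcripts from these starts apart. The window of the second start, GRCh38.p14 chr9:2021695-2021994, plus strand, is printed because it is the only other member window searched here with a GATAA core, of which it holds 3 (capitals).
SMARCA2: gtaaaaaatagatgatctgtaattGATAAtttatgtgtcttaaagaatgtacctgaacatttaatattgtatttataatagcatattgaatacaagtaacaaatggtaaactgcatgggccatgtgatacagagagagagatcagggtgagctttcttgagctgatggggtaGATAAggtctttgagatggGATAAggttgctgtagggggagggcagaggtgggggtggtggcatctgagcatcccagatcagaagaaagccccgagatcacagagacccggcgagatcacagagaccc

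SMARCA4 was 49.1 FPKM in hESC, 79.6 at D1, 82.5 at D2, 73.7 at D3, 63.1 at D4, 76.9 at D5, 74.6 at D6, 68.4 at D8, 65.9 at D10, 28.8 at D15 and 41.2 in cardiomyocytes. Its values between D1 and D10 were all above those of hESC and of both late columns. SMARCA2 made up 36.1% of the summed ATPase FPKM in cardiomyocytes and 4.79% in hESC. The share was 26.2% at D1, between 7.17% and 11.6% from D2 to D10, and 25.1% at D15. The higher late share had a different make-up in its 2 columns: at D15 SMARCA4 was called lower than at D10 (28.8 and 65.9 FPKM, 9.51% of kept genes), and in cardiomyocytes SMARCA2 was called higher than at D15 (23.3 and 9.68 FPKM, 7.23% of kept genes).

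No start window was at hand for SMARCC1 and SMARCC2, so these were not searched. Of 17 RefSeq start windows of the other 8 members, these SMARCD3 and SMARCA2 windows were the 2 with GATAA on either strand. Of 34796 distinct human windows of that length 22.8% hold it. AAGTG is in 43.1% of them. Both strands were searched for each motif, and no 2 of them overlapped in these windows. AGGTGT, a core bound by T-box factors (11.3% of windows), and the ends of a MEF2 site (2.74%) were in none of the 17 windows. A match is only a run of letters, and these windows are on another genome build than the deposited coordinates.

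The SMARCC scaffolds had nearly equal levels in the late columns and a clear lead of SMARCC1 in the early ones. SMARCC1 was 71.5 FPKM in hESC, 91.8 at D1, 88.0 at D2, 83.0 at D3, 69.7 at D4, 70.6 at D5, 64.8 at D6, 54.8 at D8, 53.9 at D10, 31.9 at D15 and 44.5 in cardiomyocytes. SMARCC2 was 24.8 FPKM in hESC, 21.3 at D1, 18.2 at D2, 19.3 at D3, 42.0 at D4, 40.7 at D5, 29.3 at D6, 30.0 at D8, 33.6 at D10, 32.4 at D15 and 45.9 in cardiomyocytes. Neither gene was called between cardiomyocytes and hESC (log2 changes of -0.67 for SMARCC1 and 0.86 for SMARCC2), although their ratio was. SMARCC2 stood at 1.03 times SMARCC1 in cardiomyocytes and at 0.347 times in hESC. Its share of the summed SMARCC FPKM lay between 17.1% and 18.9% from D1 to D3, between 31.1% and 38.4% from D4 to D10, and at 50.4% at D15 and 50.8% in cardiomyocytes. D4 against D3 was the 1 step at which SMARCC2 was called higher.

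ARID1A, the DNA-binding subunit that defines the canonical complex, was higher late but not in an even course. It was 14.1 FPKM in hESC, 22.1 at D1, 20.0 at D2, 22.5 at D3, 29.0 at D4, 41.4 at D5, 22.5 at D6, 26.1 at D8, 32.8 at D10, 21.6 at D15 and 44.8 in cardiomyocytes. High values at D5 and in cardiomyocytes stood beside low ones at D6 and D15. The paralog ARID1B was 30.1 FPKM in cardiomyocytes and 11.8 FPKM in hESC, so both were called higher. ARID1A made up 43.1% of the summed FPKM of ARID1A, ARID1B and ARID2 in cardiomyocytes, 29.7% in hESC and between 35.4% and 44.6% in the other columns. ARID2, of the PBAF complex, peaked at D5 with 35.4 FPKM, as did PBRM1 (60.2), BRD9 (38.1) and BICRA (9.06). Of all kept protein-coding genes 6.78% had their highest value at D5. The cause of the shared D5 values was not tested.

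At D15 several subunits were low together. SMARCA4, SMARCC1, SMARCD1 and DPF2 had their lowest value there, and among all 31 subunit genes 13 did, as did 27.3% of kept protein-coding genes. Against D10, SMARCD1 (15.9 and 55.9 FPKM), SMARCD2 (13.5 and 28.8) and SMARCA4 (28.8 and 65.9) were called lower at D15, beside 9.51% of kept genes. No member was called higher (6.32% of kept genes), while SMARCD3 stood at 64.1 and 62.5 FPKM and DPF3 at 38.5 and 29.7. Cell division markers were lower at D15 too: MKI67, TOP2A, CCNB1, AURKB and PCNA summed to 85.4 FPKM at D15, against 244 at D10, and to 122 in cardiomyocytes. None of these 5 is at 0. Their sum was also lower at D4 than at D3 (267 and 547 FPKM) and at D10 than at D8 (244 and 465 FPKM). No member was called lower at those steps, beside 6.30% and 1.11% of kept genes. The part of cell division, and of the stromal markers given above, in the levels at D15 was not tested. Over the 11 columns SMARCD1 and SMARCA4 had an r of 0.95, the highest of the 45 pairs of members. The genes most like SMARCD1 were EWSR1 (r = 0.98), WTAP (0.96) and SMC3 (0.96), and those most like SMARCD2 were MIIP, NPM1 and HMGA1 (0.99, 0.99 and 0.98).

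Some members exchanged places in the order by level. In hESC the order ran SMARCC1, SMARCD2, SMARCD1, SMARCA4, DPF2, SMARCC2, ARID1A, SMARCD3, DPF3 and SMARCA2, with a gap between ARID1A at 14.1 and SMARCD3 at 3.70 FPKM. In cardiomyocytes it ran SMARCD3, SMARCC2, ARID1A, SMARCC1, SMARCA4, DPF3, DPF2, SMARCD1, SMARCA2 and SMARCD2. There, the places from SMARCC2 (45.9) to SMARCA4 (41.2) lie within 5 FPKM of each other and cannot be ordered without a spread between libraries. The same limit holds in hESC for SMARCD2 (58.7), SMARCD1 (53.9) and SMARCA4 (49.1), and for DPF3 (2.59) and SMARCA2 (2.47).

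The sorts gave the only comparisons with the authors' own test, Cuffdiff q-values under 0.05, and the tables used here hold only genes that passed. A member missing from a table cannot be read as equal between its populations. From the way the authors' q-values run against their ranked p-values, about 16466 genes were tested for day 3 and 12892 for day 4. On that basis 28.2% of tested genes were called at day 3 (15.6% higher and 12.6% lower in PMESO) and 37.4% at day 4 (17.8% higher and 19.7% lower in CMESO), so that 3 and 4 of 10 members are near the background. The p-values rest on 2 libraries per population, which the labels do not say came from separate cultures.

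At day 3, in the authors' deposited table, SMARCD3 was 15.5 FPKM in ROR2-positive PMESO cells and 5.05 FPKM in ROR2-negative cells, 3.06-fold higher (log2 fold change 1.62, q = 0.000375). ARID1A, listed under the hg19 locus chr1:27022524-27108595, was 36.3 FPKM in PMESO and 22.6 FPKM in ROR2-negative cells in the authors' deposited table (log2 fold change 0.68, q = 0.00132). SMARCA2, at chr9:2015342-2193624, was lower, with 3.72 FPKM in PMESO and 5.68 FPKM in ROR2-negative cells in the authors' deposited table (log2 fold change -0.61, q = 0.0088). In the unsorted D3 column, normalized apart from the sort, SMARCA2 had 7.20 FPKM, above both populations. ARID1A had 22.48 FPKM there, just below both, and SMARCD3 11.2 FPKM, between them. SMARCD3 was thus higher in the population in which all 6 markers of cardiac mesoderm (MESP1, PDGFRA, KDR, HAND1, GATA4 and ROR2, the last of which set the gate) were higher and 6 of 7 pluripotency markers lower by the same q-value. The 3 endoderm markers were also higher there, with FOXA2 at 9.40 FPKM in PMESO and 1.15 FPKM in ROR2-negative cells and SOX17 at 12.5 and 0.664 FPKM in the authors' deposited table. The primitive streak markers T, MIXL1, EOMES, GSC, NODAL and FGF8 were higher in PMESO too by the same q-value. In the authors' deposited table MIXL1 was 33.9 FPKM in PMESO and 1.75 FPKM in ROR2-negative cells, and EOMES 34.2 and 5.47 FPKM. Of 5 stromal markers 3 were higher and none lower, and of 7 cardiomyocyte markers 2 were higher and 1 lower. The part of the cells with these markers in the folds of the members was not tested. Of the 21 other subunits on the list, 7 were higher and 3 lower in PMESO, beside 15.6% and 12.6% of tested genes. BCL7C (19.1 and 8.53 FPKM) and BCL11A (8.42 and 24.3 FPKM) were the ones past 2-fold in the authors' deposited table. SMARCD1, SMARCD2, SMARCA4, SMARCC1, SMARCC2, DPF2 and DPF3 are not in the table used here.

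At day 4, DPF3 had the largest fold of the members, at 12.6 FPKM in CMESO and 0.901 FPKM in PDGFRa-negative cells in the authors' deposited table (log2 fold change 3.81, q = 0.000269). The unsorted D4 column, which was normalized apart from the sort, has 4.29 FPKM. SMARCD3 was 43.7 FPKM in CMESO and 25.8 FPKM in PDGFRa-negative cells, 1.70-fold higher in the authors' deposited table (q = 0.000269). SMARCA2 was 6.38 FPKM in CMESO and 3.72 FPKM in PDGFRa-negative cells in the authors' deposited table (log2 fold change 0.78, q = 0.00965), the opposite direction to its day 3 sort, which separates other cells. SMARCC1, at chr3:47626762-47823596, was lower, at 55.4 FPKM in CMESO and 83.2 FPKM in PDGFRa-negative cells in the authors' deposited table (log2 fold change -0.59, q = 0.00653). In the unsorted D4 column SMARCD3 had 20.9 FPKM, below both populations, and SMARCA2 had 8.27 FPKM, above both. SMARCC1 had 69.7 FPKM there, between them. TBX5 (3.30 and 0.103 FPKM), GATA4 (47.5 and 18.6 FPKM) and the contractile gene TNNT2 (63.3 and 3.60 FPKM) were higher in CMESO in the same authors' deposited table. Of the 3 endoderm markers, FOXA2 and SOX17 were lower in CMESO and AFP higher, with FOXA2 at 3.16 FPKM in CMESO and 23.0 FPKM in the negative cells and SOX17 at 2.30 and 10.1 FPKM in the authors' deposited table. Of 7 pluripotency markers 6 were lower in CMESO, and of 5 cell division markers 4 were higher. Of the 5 stromal markers 3 were higher and 1 lower in CMESO, with COL3A1 at 76.8 FPKM in CMESO and 1.08 FPKM in PDGFRa-negative cells, LUM at 24.8 and 0.717 FPKM and COL1A1 at 146 and 28.7 FPKM higher, and POSTN at 0.213 and 1.96 FPKM lower, in the authors' deposited table. The part of these markers' cells in the folds of the members was not tested. Of the 21 other subunits, 1 was higher and 4 lower in CMESO, beside 17.8% and 19.7% of tested genes.

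**Figure D4:**
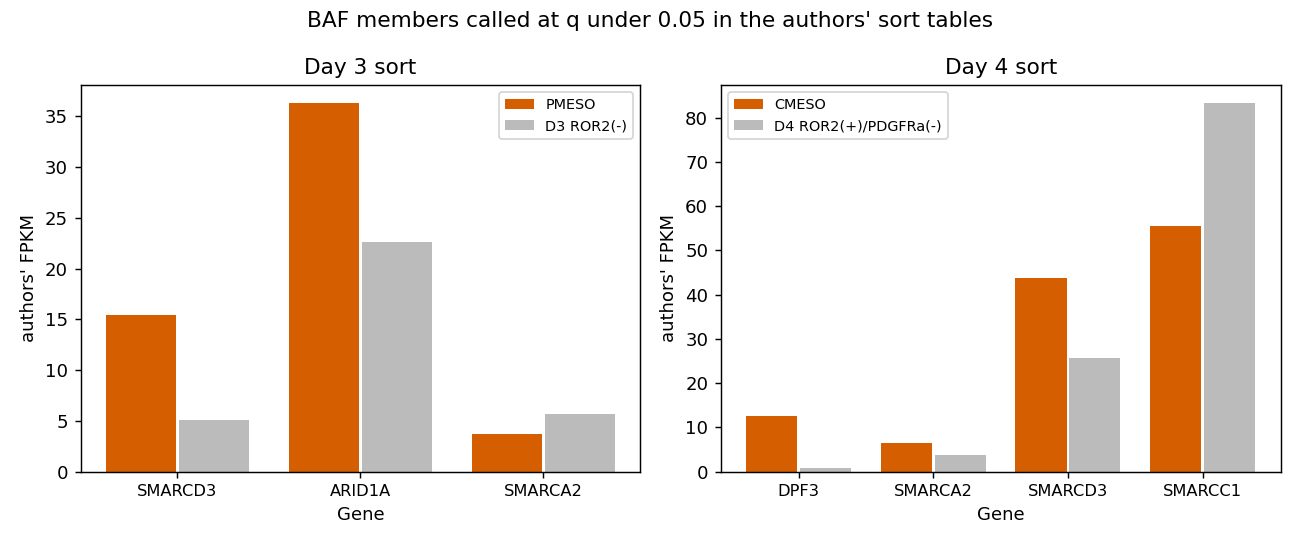
The authors' FPKM of the BAF members called at q under 0.05, in PMESO and ROR2-negative cells of day 3 (left) and in CMESO and ROR2-positive, PDGFRa-negative cells of day 4 (right). DPF3 is at 12.6 FPKM in CMESO and 0.901 in the negative cells, and SMARCD3 is higher in the positive cells of both sorts.

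The remaining 21 subunits of BAF, PBAF and the noncanonical ncBAF complex were all measured. In cardiomyocytes 6 were called higher and 4 lower than in hESC, beside 18.7% and 16.9% of all kept genes. The median log2 change of the 21 was 0.40, beside 0.03 for all kept genes. Higher were PHF10 and ARID1B (given above), PBRM1 of PBAF (40.7 FPKM in cardiomyocytes and 17.1 in hESC), BICRA (7.14 and 1.95) and BICRAL (6.64 and 2.46) of ncBAF, and BCL11A (7.69 and 2.65). Lower were ACTL6A, an actin-related subunit of dividing progenitors (18.6 FPKM in cardiomyocytes and 39.3 in hESC), BRD7 of PBAF (31.9 and 66.3), ACTB (885 and 2372) and ACTL6B. ACTL6B, the neuronal counterpart of ACTL6A, was at 0.0809 FPKM in cardiomyocytes and 1.46 FPKM in hESC, far below ACTL6A in both. The core subunits SMARCB1 (35.6 and 45.9 FPKM) and SMARCE1 (88.3 and 101) were called in neither direction, nor were SS18 (57.5 and 36.1) and SS18L1 (10.8 and 8.58). SMARCE1 was 39.6 FPKM at D3 against 117 at D2 and 120 at D4, an isolated low value of the kind that 1.61% of kept genes have at D3. DPF1 was the other subunit with one there (6.34 FPKM at D2, 1.83 at D3 and 4.85 at D4), and SMARCB1 was 54.7, 25.7 and 48.0 FPKM in these columns. With D10 in place of cardiomyocytes 3 of these subunits were higher and 2 lower (13.4% and 13.7% of kept genes), and with D1 in place of hESC 2 were higher and 2 lower (18.4% and 18.1%).

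**Figure D5:**
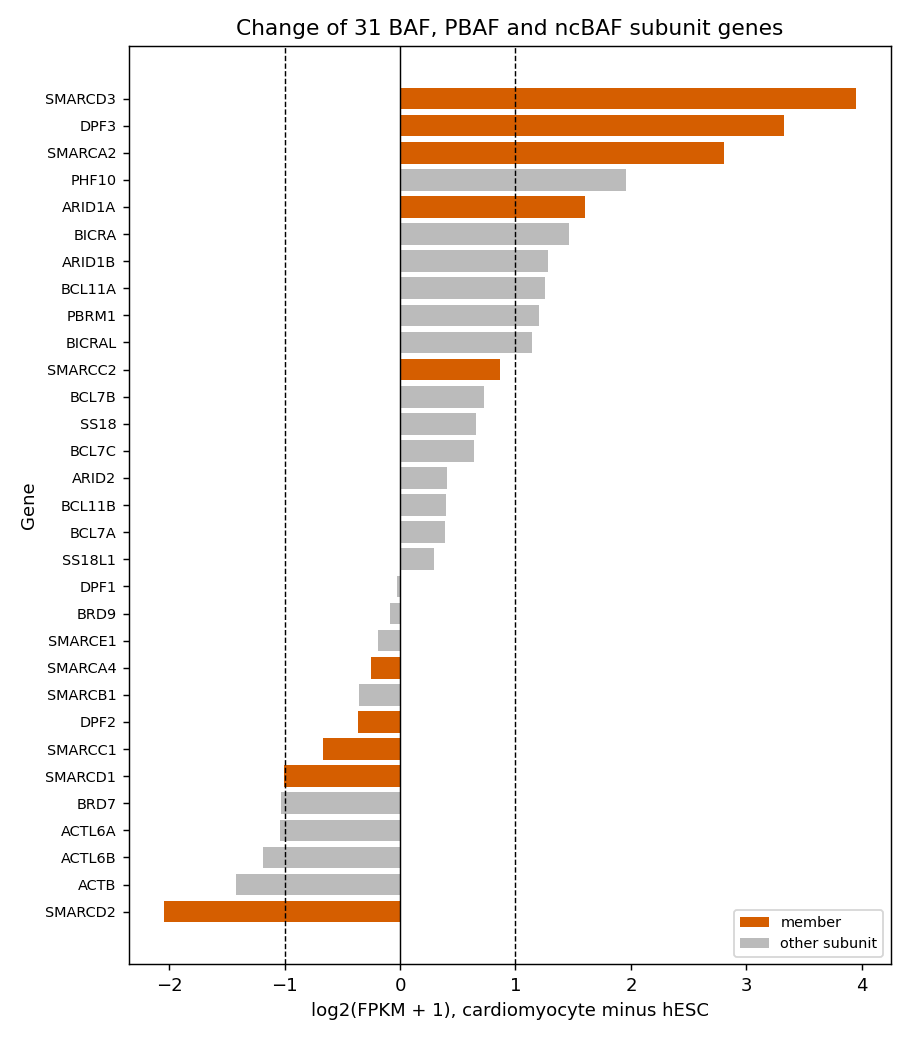
Difference in log2(FPKM + 1), cardiomyocytes minus hESC, of 31 subunit genes, with the 10 members in orange and the 21 others in grey; dashed lines mark 2-fold. SMARCD3 (3.95), DPF3 (3.33) and SMARCA2 (2.81) have the largest positive differences and SMARCD2 (-2.05) the largest negative one.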

How the data were processed

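RNA of 30 libraries in 15 groups was depleted of ribosomal RNA (500 ng input, 10 PCR cycles) and sequenced as pairs of 100 nt reads, per the labels' protocols. Reads were processed with TopHat2 2.0.8b, Bowtie2 2.1.0.0 and Cufflinks on hg19, per the submitters' processing notes; the sources used here give no annotation, strand setting or scaling. The authors deposited FPKM, 1 value per gene and time point, and 2 sort tables. Per the file headers these give FPKM per population, the log2 fold change, the linear ratio, and, from the authors' test, its statistic (used as a score), with p- and q-values.

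Values were read with pandas 2.3.3 in Python 3.11.15 and numpy 2.4.6. The test planned for separate libraries (limma) could not be run, and a gene was called where log2(FPKM + 1) differed by at least 1. Genes under 1 FPKM in every time point were left out of background shares; gene types came from GENCODE 29 by name. Rescaling divided each column by its median ratio to the geometric mean over genes above 0 throughout, and was tested on simulated data. No value rests on a known read depth. Sort-table starts were turned to 1-based. The members, lists and comparisons were chosen with earlier results of these data known. The 10 members are always named; other subunits are named where called or sharing a member's place, and those named for a D5 peak, SMARCE1, BCL7C and the sort markers were chosen after their values were seen. Genes of like pattern are the 3 with the highest r for each member spanning at least 2 in log2(FPKM + 1). Alternatives were a pseudocount of 0.1, rescaling, no filter, other end points and stricter q-values; D2 as the early end was added after the data were seen.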

Additional observations from a re-analysis of the deposited data

How the results depend on the processing

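No paired analysis was possible because the tables give 1 value per group, and for the same reason no library could be left out. Of 114 values under alternatives, 87 kept their side of the 2-fold line with no turn of a called direction, or stayed within 1.5 times of a count. SMARCD3, DPF3, SMARCD2 and DPF2 kept side and direction under all 6 alternatives run for them, as did the ratios of SMARCD3 to SMARCD1 and of DPF3 to DPF2 under all 5. SMARCA4, within 2-fold throughout, had a log2 change of 0.42 with D10 in place of cardiomyocytes, against -0.25; the causes of the changes below were not tested. With D1 in place of hESC the log2 change of SMARCA2 turned to -0.27, that of ARID1A was 0.98, SMARCC1 -1.03 and SMARCC2 1.07, and the change of SMARCA2 over SMARCA4 was 0.66. With D2 in place of hESC, SMARCC2 was 1.29. With D10 in place of cardiomyocytes SMARCD1 turned to 0.051, SMARCA2 over SMARCA4 changed by 0.78 and SMARCC2 over SMARCC1 by 0.82. With D15 in that place ARID1A was 0.58 and SMARCC1 -1.14. After rescaling SMARCD1 was -0.89.

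Members called lower numbered 1 after rescaling and 1 with D10, against 2. Other subunits called higher numbered 3 with D10, 2 with D15, 2 with D1 and 2 with D2, against 6, and those called lower 2 after rescaling, 2 with D10 and 2 with D1, against 4. Requiring 2-fold besides the authors' q-value left 1 higher and 0 lower member at day 3 (2 and 1 without it) and 1 higher and 0 lower at day 4 (3 and 1 without it); a q-value under 0.01 changed no member count. Without the filter on low values the background was 9.78% higher and 8.83% lower. Depth is unknown, so the precision of low values such as DPF3 at D1 to D3 cannot be given.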
